A study of Mus musculus with 21 samples.

Results

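The mRNA levels of 10 genes were followed through mouse acute myeloid leukaemia cells: 6 genes for MLL-family histone methyltransferases (Kmt2a, Kmt2b, Kmt2c, Kmt2d, Setd1a and Setd1b), 2 for core subunits that these enzymes share (Wdr5 and Ash2l) and 2 for H3K27 demethylases (Kdm6a and Kdm6b). They were taken by gene symbol, whatever their values, out of 16779 symbols found in any of 3 expression tables. All 10 were listed in each table and passed the filter on low values there. RNA sequencing covered 21 libraries in 8 groups. NUP98-NSD1 cells, which carry a flag-tagged fusion of a nucleoporin with a histone methyltransferase, were exposed for 4 days to UNC1999 or JQEZ5 at 3 µM, or to the solvent DMSO (3 libraries each). UNC1999 and JQEZ5 block PRC2, the enzyme complex that methylates H3K27. In a separate experiment NUP98-NSD1 cells carried a lentiviral shRNA against Kdm5b (shKdm5b) or its empty vector (shEV), selected with puromycin (3 libraries each). MLL-AF9 cells carry a fusion of MLL, the Kmt2a product, and received a retrovirus with Kdm5b in wild-type form (WT), in the demethylase-dead form H499A, or with no insert (EV; 2 libraries each). Every culture therefore carried a leukaemia fusion and grew with murine stem cell factor. The sample titles name the cells by their fusion only, so whether both NUP98-NSD1 experiments used the same line is not known from them. The knockdown is labelled with a single hairpin name, and the labels do not tell whether the libraries of a group stem from independent cultures. The p-values below measure the spread between these libraries only.

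MLL-family enzymes add methyl groups to lysine 4 of histone H3, and they work only as complexes built around Wdr5, Rbbp5, Ash2l and Dpy30. Kmt2a and Kmt2b act with menin at promoters, Kmt2c and Kmt2d place monomethylation at enhancers in complexes that also hold Kdm6a, and Setd1a and Setd1b carry much of the trimethylation at active promoters. Kdm6a (UTX) and Kdm6b (JMJD3) remove the H3K27 methylation that PRC2 places, and Kdm5b removes H3K4 methylation. In blood, Kmt2a maintains Hoxa genes and Meis1 in stem and progenitor cells.

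Recovered reads per library, in units of 1000000 (M), were 12.8 to 18.9 M in the inhibitor table, 21.3 to 34.8 M in the knockdown table and 17.3 to 20.0 M in the overexpression table. Levels are given below as normalised read counts, which were obtained from the deposited log2 values and are comparable only within a table. A change is the difference of the deposited log2 values and was tested with limma over all genes of a table, called at a Benjamini-Hochberg adjusted p under 0.05. The deposited values are variance-stabilised, so a change is smaller than the log2 ratio of the counts, more so for genes with few reads. Kdm6b, for example, had 0.73 times the DMSO counts with JQEZ5, and its change was -0.28. Sizes of change are therefore not directly comparable between genes of unlike level. The members rested on 192 to 1747 whole reads per library in the inhibitor table, 129 to 4627 in the knockdown table and 562 to 7388 in the overexpression table. Kdm5b itself averaged 28.7 ± 5.44 normalised counts in shKdm5b cells and 74.5 ± 17.8 in shEV cells (SD, n = 3 each), below the filter of 86.6, so its reduction was not tested. Per 1000000 reads, Kdm5b stood at 0.98 in shKdm5b cells, 2.5 in shEV cells and 40.1 in the DMSO cells of the inhibitor table. In MLL-AF9 cells Kdm5b averaged 1413 ± 4.48 with WT, 294 ± 21.5 with H499A and 121 ± 9.89 with EV (SD, n = 2 each), so the counted Kdm5b reads were unequal between the 2 inserts. The labels do not give the species of the introduced Kdm5b, so the part of its reads in these counts is not known. All 7 general myeloid markers were listed in every table, and none of 4 B cell markers was. Library shKdm5b replicate 1 stood apart from the other two of its group, and the knockdown results are given with and without it.

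Marker genes of blood cell types moved with the treatments. The summed level of 8 monocyte and macrophage genes was 17180 to 17810 reads per 1000000 (RPM) with UNC1999, 11940 to 12020 with JQEZ5 and 5988 to 6060 with DMSO, and 8 of 8 were called higher with each inhibitor. The sum over 7 progenitor and azurophil granule genes was 5736 to 5855 RPM with UNC1999, 8162 to 8567 with JQEZ5 and 7843 to 8185 with DMSO. Of these 7, 1 was called higher and 5 lower with UNC1999 against DMSO, 4 higher and 1 lower with JQEZ5 against DMSO, and 7 lower with UNC1999 against JQEZ5. In the knockdown the sum of the 8 monocyte and macrophage genes was 1270 to 1479 in shKdm5b cells and 1587 to 1612 in shEV cells, with 2 called higher and 6 lower. Over the 7 of these genes listed in the MLL-AF9 table it was 2556 to 2696 with WT, 1563 to 1564 with H499A and 807 to 852 with EV. The sum over the 7 progenitor and azurophil granule genes was 11780 to 13970 in shKdm5b cells and 12810 to 13190 in shEV cells. Of these 7, 2 were called higher and 1 lower. In MLL-AF9 cells that sum was 8226 to 8457 with WT, 6443 to 6515 with H499A and 6329 to 6546 with EV. There 3 were called higher and 4 lower with WT, and 2 higher and 3 lower with H499A, each against EV. The basophil marker Mcpt8, the only one of 4 mast cell and basophil markers listed, stood at 84.6 to 97.0 RPM in shKdm5b cells and 2.09 to 2.64 in shEV cells. The part of these marker shifts in the results below was not tested, and in bulk RNA fewer cells that use a gene and less RNA per cell cannot be told apart.

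Kmt2a lies on chromosome 9 at 44803355-44881296, Kmt2c on chromosome 5 at 25271798-25498783 and Kmt2d on chromosome 15 at 98831669-98871204, all on the minus strand of GRCm38. These 3 genes are shown because they were the members called higher with UNC1999. RefSeq windows on GRCm38.p6, from 250 bases before the annotated start to 50 after it, exist here for 6 of the 10 members and lie at chr9:44881240-44881539 for Kmt2a, chr5:25498734-25499033 for Kmt2c and chr15:98871156-98871455 for Kmt2d. Each reads 5′ to 3′ along the gene's own strand, with every CG dinucleotide in capitals:
Kmt2a: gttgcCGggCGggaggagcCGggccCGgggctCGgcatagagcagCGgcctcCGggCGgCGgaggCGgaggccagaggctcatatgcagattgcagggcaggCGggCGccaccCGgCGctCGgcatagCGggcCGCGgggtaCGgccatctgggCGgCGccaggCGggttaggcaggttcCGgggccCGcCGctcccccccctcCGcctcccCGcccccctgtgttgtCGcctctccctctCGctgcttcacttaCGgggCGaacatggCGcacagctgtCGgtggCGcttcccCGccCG
Kmt2c: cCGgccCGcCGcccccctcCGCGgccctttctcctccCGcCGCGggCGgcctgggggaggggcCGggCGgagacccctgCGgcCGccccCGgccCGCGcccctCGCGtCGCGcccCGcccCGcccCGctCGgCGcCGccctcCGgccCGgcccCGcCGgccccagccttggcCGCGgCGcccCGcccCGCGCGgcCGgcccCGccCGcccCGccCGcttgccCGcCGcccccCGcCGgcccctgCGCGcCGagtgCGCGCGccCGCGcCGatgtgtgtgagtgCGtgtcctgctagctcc
Kmt2d: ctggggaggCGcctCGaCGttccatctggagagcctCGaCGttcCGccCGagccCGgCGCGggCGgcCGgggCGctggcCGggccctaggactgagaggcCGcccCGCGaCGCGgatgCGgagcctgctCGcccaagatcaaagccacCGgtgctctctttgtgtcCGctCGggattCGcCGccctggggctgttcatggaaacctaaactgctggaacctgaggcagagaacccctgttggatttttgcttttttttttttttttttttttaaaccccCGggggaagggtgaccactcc
The letters CG, which read the same on both strands, occurred 56 times at Kmt2c, 36 times at Kmt2a and 27 times at Kmt2d. The median over 32851 mouse windows of the same length was 7, and 94.6% of them held at least one. Kmt2c had more CG than 99.8% of these windows, Kmt2a more than 93.8% and Kmt2d more than 84.5%. Setd1a had 35, Wdr5 22 and Kdm6a 21, so CG-dense starts were not limited to the 3 genes printed.

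Per kilobase of the longest annotated transcript, the core subunits were the most abundant members in all 3 tables. Wdr5, a WD-repeat scaffold, averaged 24.8 RPM per kilobase over the inhibitor groups, and Ash2l, which stimulates the catalytic subunit, averaged 12.8. Among the enzymes of that table Setd1a (9.25) and Setd1b (7.77) stood above Kmt2b (6.45), Kmt2c (5.91), Kmt2a (4.02) and Kmt2d (2.50). Kdm6a averaged 5.90 and Kdm6b 2.83 on the same scale. Setd1a stood above Setd1b in each group, at 8.35 against 7.70 with UNC1999, 9.70 against 6.77 with JQEZ5 and 9.69 against 8.85 with DMSO. Kmt2b, Kmt2c and Kdm6a changed places between groups. Kmt2c led these 3 with UNC1999 at 6.97, Kdm6a with JQEZ5 at 5.92 and Kmt2b with DMSO at 6.72. In the knockdown table Wdr5 (47.6) and Ash2l (33.3) again led, followed by Setd1a at 15.5, with Kdm6b last at 1.06.

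The MLL-AF9 cells ranked the genes differently. Wdr5 averaged 39.6 RPM per kilobase and Ash2l 28.8, followed by Kdm6a at 26.0 and Kmt2a at 17.2, while Kmt2c was last at 4.13. Group means of Kmt2a ran from 13.6 to 22.4 in MLL-AF9 cells, against 3.75 to 4.54 in the inhibitor groups and 3.90 to 4.28 in the knockdown groups of NUP98-NSD1 cells. The 3 tables were normalised separately and no test crosses them. Reads of an MLL fusion cannot be told apart from reads of the resident Kmt2a gene in these counts, and the labels do not say from which species the MLL part of the fusion came.

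With UNC1999, the 3 longest MLL enzymes were higher than with DMSO, while both core subunits, Setd1b and both H3K27 demethylases were lower. Kmt2c, the enhancer enzyme MLL3, had 1605, 1681 and 1658 normalised counts with UNC1999, against 1236, 1160 and 1175 with DMSO. The 3 UNC1999 libraries all lay above the 3 DMSO libraries, and the log2 change was 0.41 ± 0.04 (SE, limma adjusted p = 1.87e-07). Kmt2d, the related enzyme MLL4, had 889, 917 and 1034 with UNC1999, against 662, 702 and 692 with DMSO. It was 0.37 ± 0.05 higher on the log2 scale (limma adjusted p = 1.67e-05), again without overlap. Kmt2a had 1150, 1205 and 1187 with UNC1999, against 959, 894 and 952 with DMSO, a change of 0.28 ± 0.04 (limma adjusted p = 4.5e-05). Its closest relative Kmt2b did not pass, with 892, 942 and 876 counts under UNC1999 and 834, 890 and 861 under DMSO, which overlap.

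**Figure D1:**
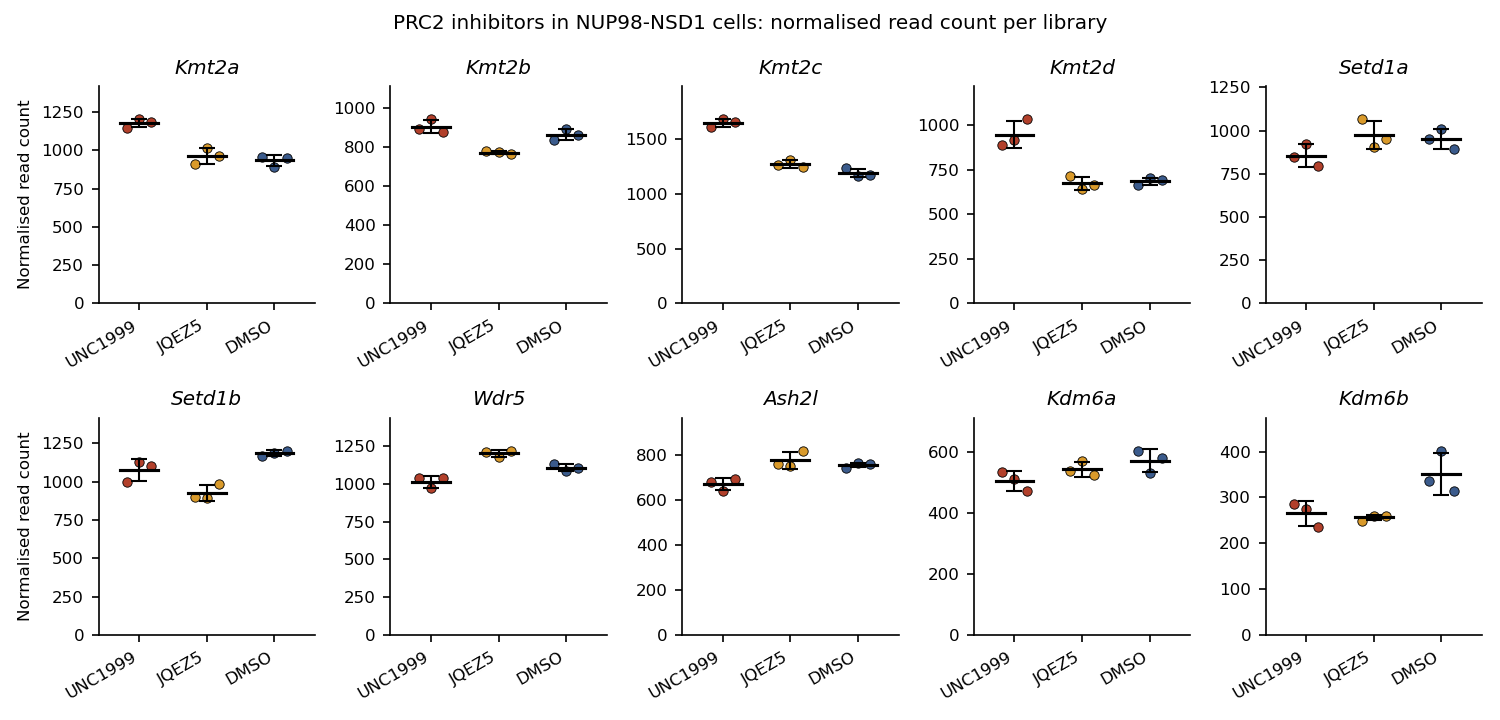
Normalised read counts of the 10 genes in NUP98-NSD1 cells, with one point per library, a bar at the mean and whiskers of 1 SD (n = 3). Kmt2a, Kmt2c and Kmt2d stand highest with UNC1999, and Kdm6b is lower with UNC1999 (235 to 287) and JQEZ5 (249 to 260) than with DMSO (314 to 402).

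Kdm6b was the member that fell furthest with UNC1999. It had 287, 274 and 235 counts with UNC1999, against 337, 402 and 314 with DMSO, a log2 change of -0.25 ± 0.06 (limma adjusted p = 0.00376). The 2 groups did not overlap. Smaller falls were called for Ash2l (-0.13, limma adjusted p = 0.0153), Kdm6a (-0.13, 0.0400), Setd1b (-0.12, 0.0410) and Wdr5 (-0.10, 0.0289). Ash2l had 680, 641 and 694 counts with UNC1999, against 744, 764 and 760 with DMSO. Wdr5 had 1037, 970 and 1037 with UNC1999, against 1131, 1082 and 1107 with DMSO, and Setd1b had 997, 1131 and 1102, against 1167, 1190 and 1203. None of these 3 genes overlapped between the groups. Kdm6a is X-linked and overlapped between groups, with 534, 512 and 471 counts under UNC1999 and 605, 532 and 581 under DMSO. Setd1a had 850, 923 and 793 counts with UNC1999 and 953, 1011 and 891 with DMSO, and its change of -0.13 did not pass (limma adjusted p = 0.0788). In all 8 of 10 members were called, 3 higher and 5 lower, where 47.9% of all 10692 tested genes were called, 23.9% higher and 24.0% lower. The UNC1999 and DMSO libraries did not overlap for 7 members, as for 55.1% of all tested genes. The median change was -0.11 over the members and -0.01 over all tested genes.

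On the recovered counts with limma voom, the falls with UNC1999 were -0.44 for Kdm6b, -0.24 for Kdm6a, -0.23 for Ash2l, -0.21 for Setd1b and -0.19 for Wdr5. In that fit each library was scaled by its total recovered reads, unlike the deposited values. The median over all tested genes also stood lower there, at -0.08. The calls of the small falls depended on single libraries. Without DMSO replicate 1 only 5 members were called, and Setd1b, Wdr5 and Kdm6a were no longer among them. Setd1b also lost its call without DMSO replicate 2 or 3 or UNC1999 replicate 1, Wdr5 without DMSO replicate 3 or UNC1999 replicate 2, Ash2l without UNC1999 replicate 2, and Kdm6a without DMSO replicate 3 or UNC1999 replicate 2 or 3. In the fits without a call the change was -0.13 to -0.07 for Setd1b, -0.10 to -0.08 for Wdr5, -0.11 for Ash2l and -0.14 to -0.10 for Kdm6a. Setd1b also missed the threshold with no filter on low values (limma adjusted p = 0.0533) and without the trended prior (0.0619), and Kdm6a when UNC1999 and DMSO were fitted alone (0.0544). Setd1a passed without DMSO replicate 3 (limma adjusted p = 0.0490) or UNC1999 replicate 2 (0.0308), with quantile normalisation (0.0474) and by voom (0.0232). Kmt2a, Kmt2c, Kmt2d and Kdm6b kept their calls whichever library was left out.

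JQEZ5 lowered 3 members and raised none past the threshold. Setd1b had 900, 895 and 988 counts with JQEZ5, against 1167, 1190 and 1203 with DMSO, a log2 change of -0.30 ± 0.05 (limma adjusted p = 0.00018). Kdm6b had 249, 259 and 260 with JQEZ5, against 337, 402 and 314 with DMSO, a change of -0.28 ± 0.06 (limma adjusted p = 0.00396). Kmt2b had 777, 772 and 763 with JQEZ5, against 834, 890 and 861 with DMSO, a change of -0.13 (limma adjusted p = 0.0257). None of these 3 genes overlapped between the 2 groups. Kmt2a, with 913, 1018 and 963 counts under JQEZ5, overlapped DMSO and did not pass (limma adjusted p = 0.588). By voom on the recovered counts, Kdm6b changed by -0.47. All 3 calls of the 10 members were lower ones, beside 23.7% of all tested genes called with JQEZ5, 13.1% higher and 10.5% lower. No overlap with DMSO was seen for 5 members and 41.6% of all tested genes, and the members' median change was 0.00, against 0.01 over all tested genes. Kmt2b lost its call without DMSO replicate 2 or 3 or without any 1 of the JQEZ5 libraries (limma adjusted p = 0.0507 to 0.113). Wdr5 had 1210, 1176 and 1220 counts under JQEZ5 and 1131, 1082 and 1107 under DMSO, and did not pass with all libraries (limma adjusted p = 0.0622). It passed without UNC1999 replicate 3 (limma adjusted p = 0.0432), a library that enters only through the shared estimate of the spread. With JQEZ5 and DMSO fitted alone it passed as well (0.10, limma adjusted p = 0.0430).

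The 2 inhibitors share their DMSO libraries, so they were also compared with each other at the same dose and time. UNC1999 exceeded JQEZ5 by 0.39 ± 0.05 on the log2 scale for Kmt2d (limma adjusted p = 2.27e-05), and by 0.32 ± 0.04 for Kmt2c (6.08e-06). JQEZ5 libraries had 716, 643 and 664 counts of Kmt2d and 1266, 1312 and 1243 of Kmt2c, all below every UNC1999 library. Kmt2a (0.24, limma adjusted p = 0.000299), Kmt2b (0.18, 0.00175) and Setd1b (0.18, 0.00661) were also higher with UNC1999. Lower with UNC1999 were Wdr5 (-0.20, limma adjusted p = 0.000482), Ash2l (-0.16, 0.00613) and Setd1a (-0.15, 0.0472). Setd1a overlapped between the 2 groups and lost its call without DMSO replicate 1, UNC1999 replicate 1 or 3, or JQEZ5 replicate 1 or 3, where it was -0.17 to -0.10. It also missed the threshold with no filter, with median centring, without the trended prior and with these 2 groups alone (limma adjusted p = 0.0587 to 0.0772). That made 8 of 10 members called in this comparison, 5 higher and 3 lower, where 36.4% of all tested genes were called, 18.7% higher and 17.7% lower. The libraries of the 2 inhibitors did not overlap for 7 members and for 45.2% of all tested genes. The members' median difference was 0.10, beside -0.00 over all tested genes.

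No difference of the H3K27 demethylases between the 2 compounds passed the test. Kdm6b differed by 0.03 (95% interval -0.10 to 0.16, limma adjusted p = 0.757), with 287, 274 and 235 counts under UNC1999 and 249, 259 and 260 under JQEZ5. Kdm6a differed by -0.08 (95% interval -0.18 to 0.03, limma adjusted p = 0.247), with 537, 571 and 524 counts under JQEZ5 beside the UNC1999 values above. These intervals leave room for differences as large as some of those called for other members.

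Transcript length moved with the UNC1999 result. Kmt2d, Kmt2a and Kmt2c have the longest annotated transcripts of the 10 genes, at 19.8, 16.5 and 15.0 kb, and the others run from 2.89 kb for Wdr5 to 8.86 kb for Setd1b. Over the 104 tested genes with transcripts longer than 12 kb, the median change with UNC1999 against DMSO was 0.20, with 62 called higher and 6 lower. In each UNC1999 library these long genes stood above their own mean over the table, by a median of 0.11 to 0.15 on the log2 scale. JQEZ5 against DMSO showed no such shift, with a median of 0.02 over the same 104 genes.

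**Figure D2:**
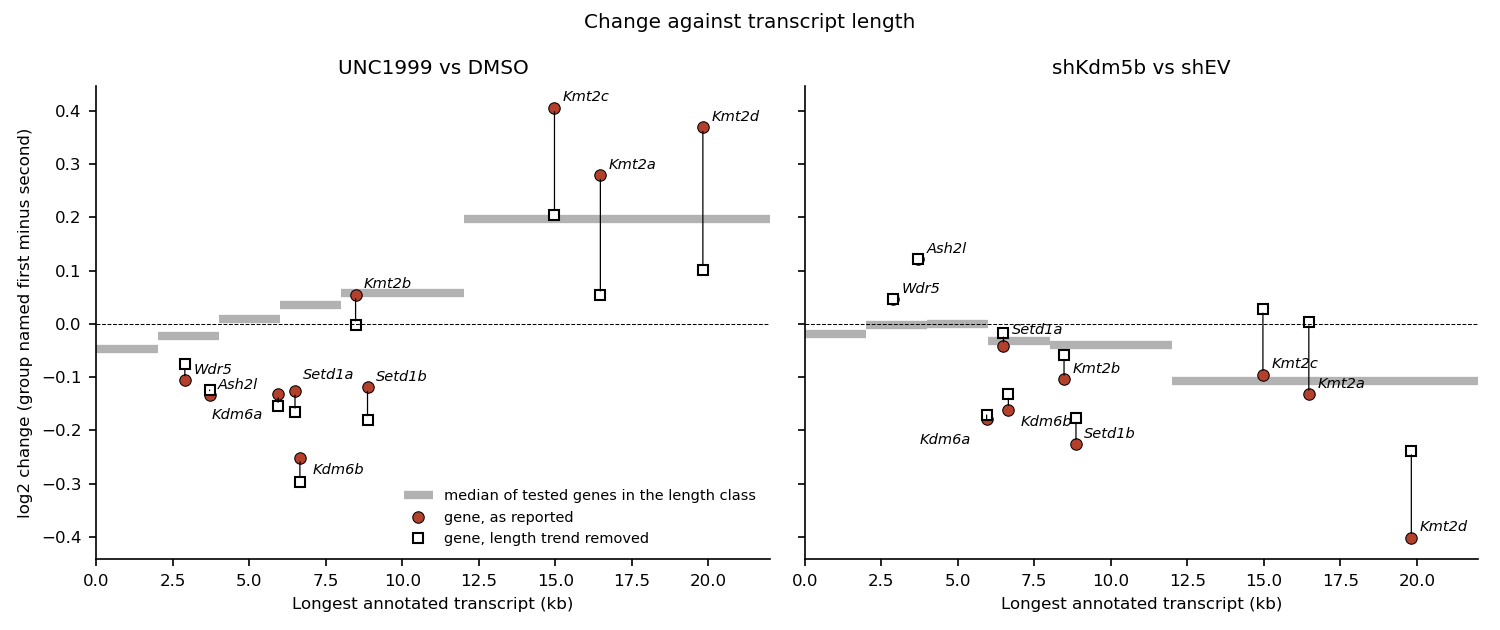
Log2 change against longest annotated transcript (kb) for the 10 genes, as reported (filled circles) and with the length trend of each library removed (open squares), over grey bars for the median of all tested genes in each length class. The bar for transcripts longer than 12 kb lies at 0.20 for UNC1999 against DMSO and at -0.11 for shKdm5b against shEV.

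With the length trend of each library removed, an alternative chosen after seeing the data, Kmt2c was still called higher with UNC1999 than with DMSO, at 0.20 (limma adjusted p = 9.5e-05). Kmt2a at 0.05 (limma adjusted p = 0.255) and Kmt2d at 0.10 (0.128) were no longer called. Wdr5 also lost its call at -0.08 (limma adjusted p = 0.0967), and Setd1a was called lower at -0.17 (0.0283). Kdm6b remained lower at -0.30 (limma adjusted p = 0.00127) and Setd1b at -0.18 (0.00379). With JQEZ5 against DMSO, Wdr5 was called higher on that basis, at 0.105 (limma adjusted p = 0.0452). Between UNC1999 and JQEZ5, Kmt2c at 0.13 (limma adjusted p = 0.00496), Kmt2d at 0.14 (0.0485) and Kmt2b at 0.11 (0.0385) kept their calls, while Kmt2a at 0.03 (0.526) and Setd1b at 0.10 (0.0926) did not. The cause of the length shift was not tested.

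Kmt2c and Kmt2d varied most among the members over the 9 inhibitor libraries, with group means spread over 0.41 and 0.39 on the log2 scale. The 5 tested genes whose levels followed Kmt2c most closely were Syk (r = 0.995), Kdm5b (0.995), Tubb6 (0.993), Stard9 (0.992) and Wnk1 (0.992). Kdm5b averaged 886 ± 14.7 counts with UNC1999, 658 ± 8.64 with JQEZ5 and 607 ± 14.9 with DMSO (SD, n = 3 each), the same order as Kmt2c. Those closest to Kmt2d were Abi3 (r = 0.985), Nfkbiz (0.983), Slc35f6 (0.981), Endov (0.976) and Pde1b (0.976). These Pearson correlations describe 9 libraries that share 3 treatments.

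Between shKdm5b and shEV cells, Kmt2d differed most among the members and was lower in shKdm5b cells. Kmt2d had 1261, 1442 and 1511 normalised counts in shKdm5b cells, against 1996, 2027 and 1838 in shEV cells. All shKdm5b libraries lay below all shEV libraries, and the log2 change was -0.40 ± 0.06 (SE, limma adjusted p = 0.00163). Setd1b had 1499, 1793 and 1769 in shKdm5b cells, against 2045, 2175 and 1852 in shEV cells, a change of -0.23 ± 0.07 (limma adjusted p = 0.0394). Kdm6b, at 176, 200 and 176 in shKdm5b cells against 239, 234 and 224 in shEV cells, changed by -0.16 ± 0.05 (limma adjusted p = 0.0243). Ash2l was the one member called higher, with 3789, 3787 and 3805 in shKdm5b cells against 3565, 3328 and 3489 in shEV cells (0.12, limma adjusted p = 0.0467).

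**Figure D3:**
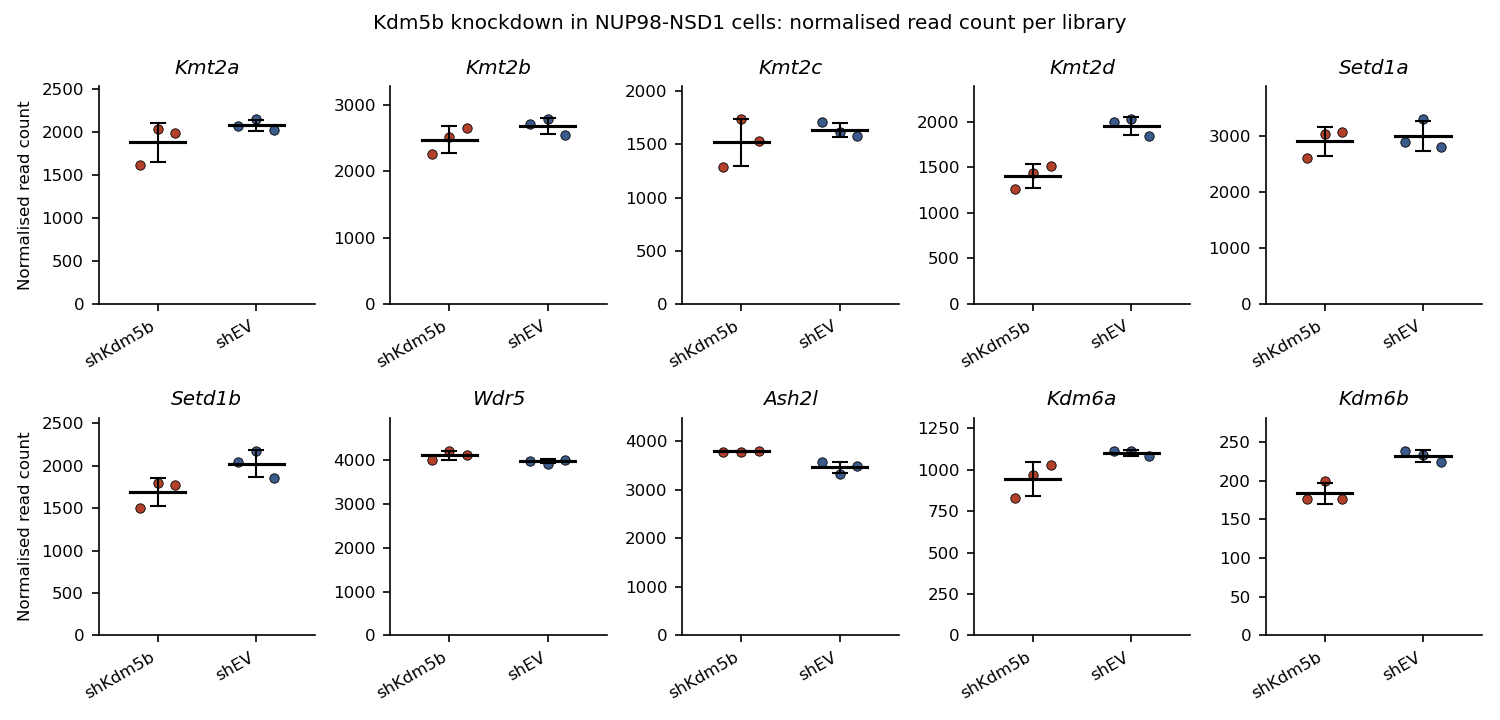
Normalised read counts of the 10 genes in NUP98-NSD1 cells with shKdm5b or shEV, with one point per library, a bar at the mean and whiskers of 1 SD (n = 3). Kmt2d is lower in all shKdm5b libraries (1261 to 1511) than in all shEV libraries (1838 to 2027). Replicate 1 is the lowest shKdm5b library for every gene except Ash2l and Kdm6b.

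The other enzymes overlapped between the 2 groups. Kmt2a had 1614, 2032 and 1992 counts in shKdm5b cells and 2072, 2150 and 2022 in shEV cells, and Kmt2c had 1290, 1736 and 1530 in shKdm5b cells and 1709, 1618 and 1575 in shEV cells. Kmt2b changed by -0.10 (95% interval -0.24 to 0.03) and Setd1a by -0.04 (-0.21 to 0.12). Wdr5 averaged 4111 ± 101 in shKdm5b cells and 3967 ± 45.7 in shEV cells (SD, n = 3 each) and did not pass (limma adjusted p = 0.379). Kdm6a, at 827, 970 and 1028 in shKdm5b cells against 1110, 1114 and 1081 in shEV cells, did not overlap but missed the threshold (-0.18, limma adjusted p = 0.0523). Altogether 4 of 10 members were called, 1 higher and 3 lower, where 32.5% of 10808 tested genes were called, 15.0% higher and 17.4% lower. Libraries of the 2 groups did not overlap for 6 members and for 49.0% of all tested genes. The members' median change was -0.12, beside -0.01 over all tested genes.

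In library shKdm5b replicate 1 the 102 genes with transcripts longer than 12 kb lay 0.21 below their own mean over the table at the median, against 0.04 above and 0.00 for the other two shKdm5b libraries. Without it, 5 members were called, with Kmt2d at -0.34 (limma adjusted p = 0.000267), Setd1b at -0.16 (0.0358), Kdm6b at -0.15 (0.0281), Kdm6a at -0.11 (0.0340) and Ash2l at 0.12 (0.0156). Counts of called members fell to 1 without shEV replicate 1 or 2, and to 2 without shEV replicate 3 or shKdm5b replicate 3. The 3508 genes called over the whole table became 1854, 1957 and 1959 without shEV replicates 1, 2 and 3, and 5474 without shKdm5b replicate 1. Kmt2d kept its call whichever library was left out. Setd1b lost its call without shEV replicate 1 or 2 or shKdm5b replicate 3, Kdm6b without any 1 of the shEV libraries or shKdm5b replicate 3, and Ash2l without any 1 library except shKdm5b replicate 1. In those fits Setd1b was -0.26 to -0.18, Kdm6b -0.17 to -0.15 and Ash2l 0.10 to 0.14. Setd1b also missed the threshold with median centring (limma adjusted p = 0.0508) and by voom (0.0540), and Ash2l with no filter (0.0614) and without the trended prior (0.0529). Kdm6a gained a call without shKdm5b replicate 1 or 3. By voom on the recovered counts Kdm6b changed by -0.32. With the length trend removed Kmt2d changed by -0.24 (limma adjusted p = 0.0029), Kdm6a by -0.17 (0.00895) and Kdm6b by -0.13 (0.0578). With the replicate number as a block, Ash2l was no longer called (limma adjusted p = 0.0931) and Kdm6a was (0.0353). Whether the numbers pair the libraries is not known.

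In MLL-AF9 cells, Kmt2a moved in opposite directions with the 2 forms of Kdm5b. It had 4153 and 4041 counts with WT, 6860 and 6811 with H499A, and 4952 and 4721 with EV. WT lay below EV by 0.21 ± 0.03 on the log2 scale (SE, limma adjusted p = 7.85e-08), and H499A lay above EV by 0.46 ± 0.03 (5.23e-14), with the EV libraries shared by both comparisons. Set directly against H499A, WT was lower by -0.67 ± 0.03 (limma adjusted p = 1.7e-17), or 40.1% fewer counts. No libraries overlapped between any 2 of the 3 groups. The fusion's own reads may be part of these counts, as stated above.

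**Figure D4:**
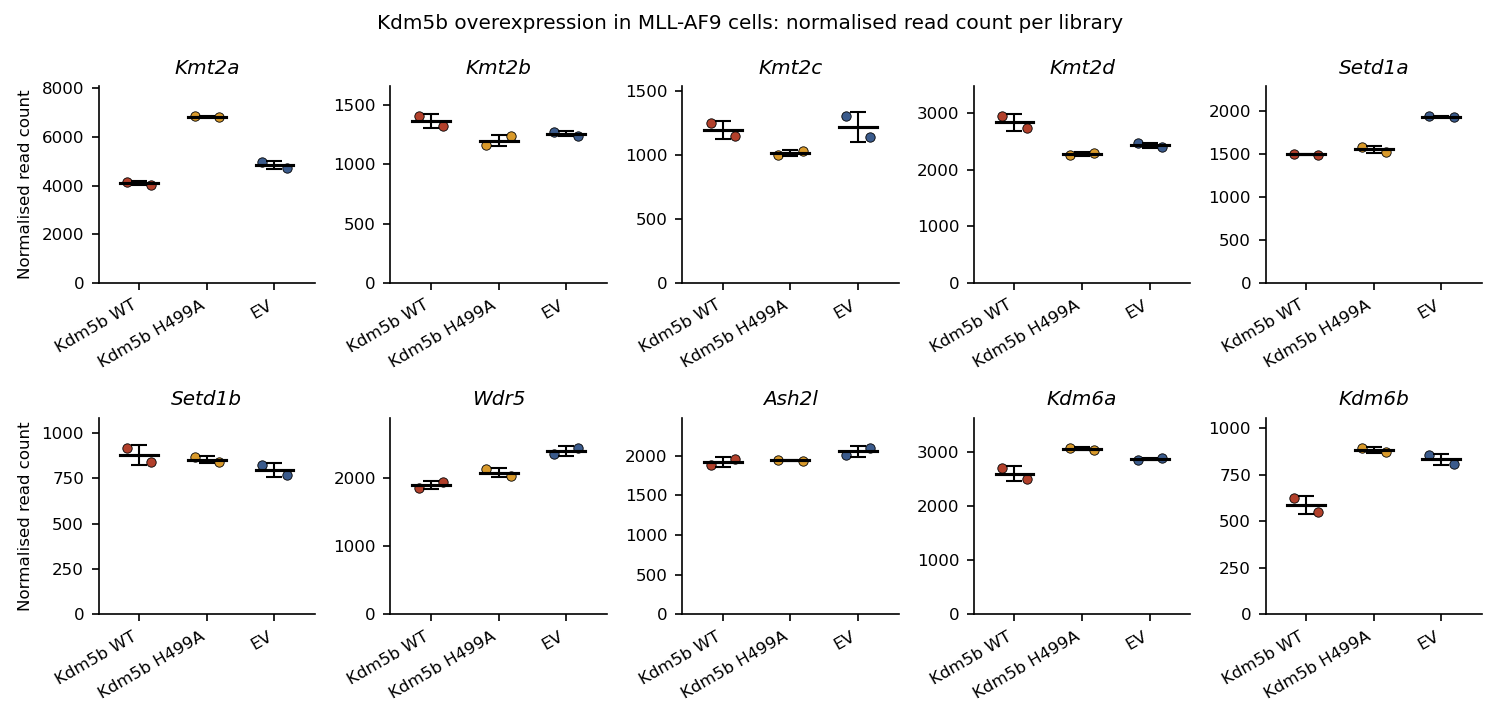
Normalised read counts of the 10 genes in MLL-AF9 cells with WT Kdm5b, H499A or EV, with one point per library, a bar at the mean and whiskers of 1 SD (n = 2). Kmt2a is highest with H499A (6811 to 6860) and lowest with WT (4041 to 4153), and Kdm6b is lowest with WT (552 to 623).

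Kmt2d, Kmt2b and Setd1b rose with WT Kdm5b. Kmt2d had 2954 and 2741 counts with WT, 2257 and 2307 with H499A, and 2469 and 2398 with EV. WT lay 0.19 ± 0.03 above EV (limma adjusted p = 6.44e-06) and 0.26 ± 0.03 above H499A (4.56e-08), while H499A lay -0.08 from EV (0.0397). Kmt2b was 0.09 higher with WT than with EV (limma adjusted p = 0.0290) and 0.13 higher than with H499A (0.00137). Setd1b had 919 and 841 counts with WT, 868 and 838 with H499A, and 823 and 768 with EV, and only WT against EV was called (0.09, limma adjusted p = 0.0284). Kmt2c had 1248 and 1146 with WT, 999 and 1033 with H499A, and 1305 and 1140 with EV. It was lower with H499A than with EV (-0.19, limma adjusted p = 0.000309), and WT against EV did not pass (-0.02, 95% interval -0.10 to 0.06). Without EV replicate 1 the change with H499A was -0.12 (limma adjusted p = 0.0432). WT exceeded H499A by 0.16 for Kmt2c, or by 0.10 with the length trend removed (limma adjusted p = 0.0175), and Kmt2d was 0.10 above EV with WT on that basis. With the same removal Kmt2c was called lower with WT than with EV (-0.09, limma adjusted p = 0.0335).

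Setd1a and the 2 core subunits stood highest with EV. Setd1a had 1502 and 1491 counts with WT, 1587 and 1529 with H499A, and 1942 and 1929 with EV. Its changes against the shared EV libraries were -0.29 with WT (limma adjusted p = 4.56e-09) and -0.24 with H499A (1.28e-07). WT against H499A differed by -0.04 (95% interval -0.10 to 0.02), which did not pass. With the length trend removed this difference was called, at -0.07 (limma adjusted p = 0.0378). Wdr5 had 1850 and 1940 with WT, 2125 and 2030 with H499A, and 2346 and 2445 with EV, and was called lower with WT (-0.27, limma adjusted p = 1.78e-08) and with H499A (-0.17, 5.05e-05). Ash2l fell slightly with WT (-0.08, limma adjusted p = 0.0257) and did not pass with H499A (-0.07, 0.0734).

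The demethylases differed between the 2 forms of Kdm5b. Kdm6b had 623 and 552 counts with WT, 896 and 871 with H499A, and 854 and 810 with EV. It was lower with WT than with EV (-0.31 ± 0.04, limma adjusted p = 8.27e-08) and lower than with H499A (-0.37 ± 0.04, 6.88e-09), while H499A against EV did not pass (0.06, 95% interval -0.02 to 0.13). By voom on the recovered counts Kdm6b was -0.48 with WT against EV and -0.58 against H499A. Kdm6a had 2703 and 2515 with WT, 3091 and 3054 with H499A, and 2865 and 2895 with EV. WT was 0.12 below EV in log2 terms (limma adjusted p = 0.000815), H499A was 0.08 above EV (0.0255), and WT was -0.20 from H499A (2.04e-06). Without WT replicate 2, Kdm6a was -0.08 from EV with WT.

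With WT against EV 9 of 10 members were called, 3 higher and 6 lower, where 62.2% of 9456 tested genes were called, 29.8% higher and 32.4% lower. H499A against EV gave 6 of 10, 2 higher and 4 lower, beside 49.6% of all tested genes, 22.7% higher and 26.9% lower. WT against H499A gave 7 of 10, 3 higher and 4 lower, beside 54.4%, 28.2% higher and 26.3% lower. With 2 libraries a group, most genes did not overlap: 9 members and 79.4% of all tested genes for WT against EV, 10 and 75.0% for H499A against EV, and 8 and 75.8% for WT against H499A. The members' medians were -0.10, -0.06 and -0.03 in the same order, beside -0.01, -0.01 and 0.01 over all tested genes. The higher calls of Kmt2b and Setd1b with WT are small. Kmt2b lost its call without EV replicate 1 or 2 or WT replicate 1, and Setd1b and Ash2l without EV replicate 2 or WT replicate 1. Without WT replicate 1 these changes were 0.05 for Kmt2b, 0.05 for Setd1b and -0.05 for Ash2l, and Ash2l was -0.05 without EV replicate 2. By voom, WT against EV gave 0.14 for Kmt2b and 0.17 for Setd1b, and WT against H499A gave 0.20 for Kmt2b and 0.25 for Kmt2c. For H499A against EV, Kmt2d and Kdm6a lost their calls without any 1 of the 4 libraries compared, and Ash2l gained one without either WT library. Kmt2d there also missed the threshold with no filter, without the trended prior and by voom (limma adjusted p = 0.0704 to 0.0930), and Kdm6a without the trended prior (0.0708). With WT against EV, Ash2l missed it with quantile normalisation, without the trended prior and by voom (limma adjusted p = 0.0522 to 0.134), and Setd1b with quantile normalisation (0.0879). Wdr5 lost its call between WT and H499A without H499A replicate 1. With each library centred on its median, or with the length trend removed, Kmt2b and Setd1b were not called with WT against EV, which left Kmt2d as the only member called higher.

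**Figure D5:**
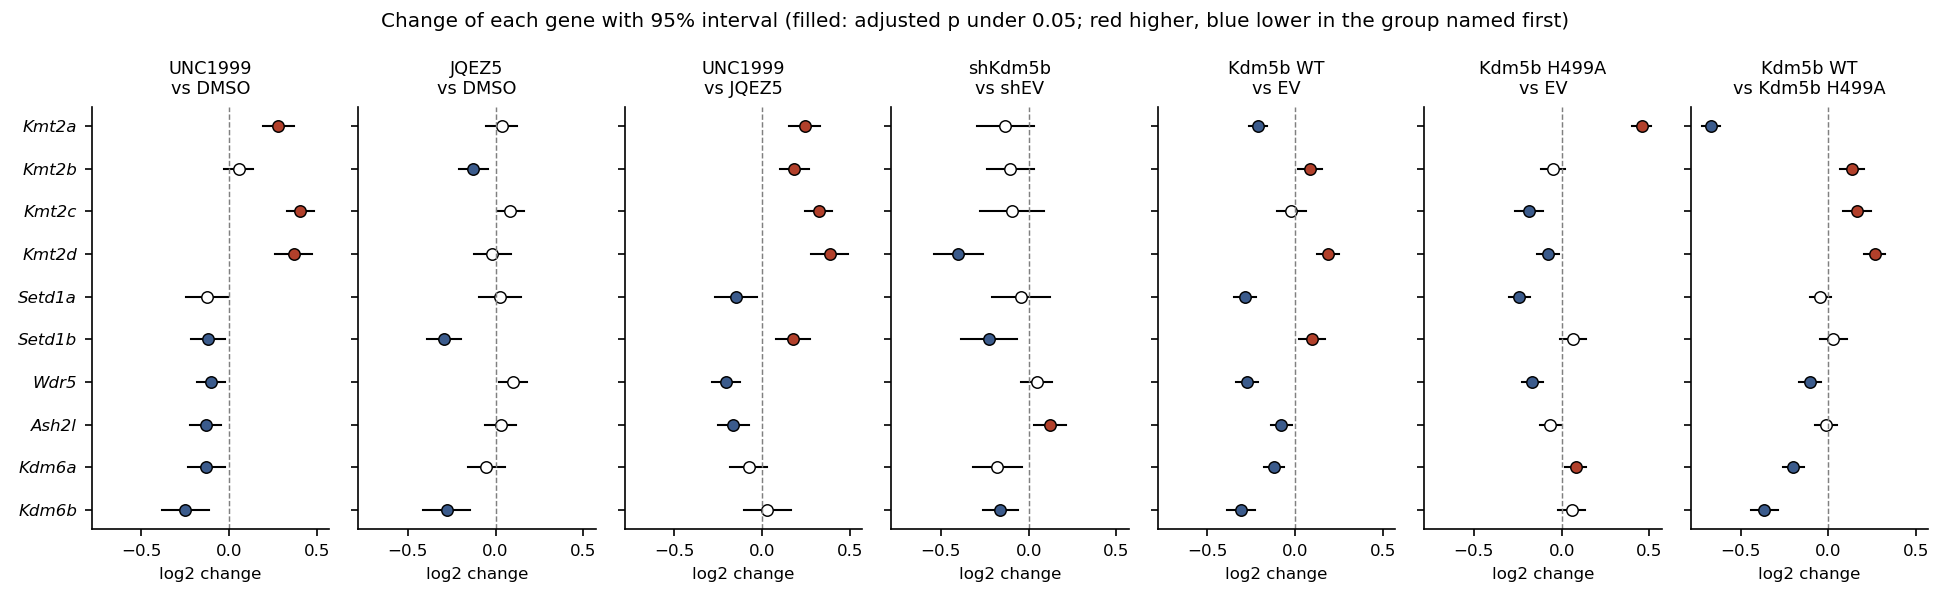
Log2 change of the 10 genes (rows) in the 7 comparisons (columns), named with the treated group before its control, with calls at limma adjusted p under 0.05 marked. Kmt2a spans the widest range, at 0.46 for H499A against EV and -0.67 for WT against H499A, and Kdm6b runs from -0.37 for WT against H499A to 0.06 for H499A against EV.

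Kdm6b was called lower with UNC1999 and with JQEZ5 against the same DMSO libraries, and of the 2 Kdm5b forms, which share the EV libraries, with WT. Its lower call in shKdm5b cells was lost under 5 of 14 alternatives. The antisense gene Kdm6bos overlaps 286 exonic bases of Kdm6b, or 4.11% of its exons, and strand use in counting is not given in the sources used here. For Setd1a, the same-strand gene Gm49388 of GENCODE M21 covers 51.9% of the exonic bases. Gm49388 was not listed in any table, and whether it took reads from Setd1a in the submitters' counting is not known. Wdr5b, a relative of Wdr5, averaged 40.5 normalised counts with UNC1999, 39.3 with JQEZ5 and 36.0 with DMSO, far under Wdr5. It passed the filter only in the knockdown table, at 136 ± 13.5 in shKdm5b cells and 101 ± 3.05 in shEV cells (SD, n = 3 each; limma adjusted p = 0.0251). Uty, the Y-linked relative of Kdm6a, was not listed in any table.

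A further 13 subunits of the same complexes were followed as a list chosen with results of these data known. With UNC1999 against DMSO 1 rose and 4 fell of 13 tested, beside 23.9% higher and 24.0% lower over all tested genes. Ncoa6, a coactivator of the Kmt2c and Kmt2d complexes, averaged 1438 ± 103 counts with UNC1999 and 1137 ± 29.9 with DMSO (0.29, limma adjusted p = 6.37e-05), and Paxip1 of the same complexes fell (-0.16, 0.00635). Dpy30, a shared core subunit, averaged 353 ± 9.05 with UNC1999 and 422 ± 4.40 with DMSO (-0.17, limma adjusted p = 0.00514), and Psip1, the chromatin tether of menin and Kmt2a, changed by -0.11 (0.0384). By voom these changes were -0.26 for Paxip1, -0.32 for Dpy30 and -0.20 for Psip1. Psip1 lost its call without any 1 of the DMSO libraries or UNC1999 replicate 1, with no trended prior and with the length trend removed, and the list's calls fell to 3 without DMSO replicate 1 or 3 or UNC1999 replicate 1. With JQEZ5 against DMSO 1 rose, Ncoa6 (0.17, limma adjusted p = 0.0132), and 1 fell, Hcfc1 (-0.14, 0.00682), a host cell factor found in Setd1 and Kmt2a complexes, beside 13.1% and 10.5% of all tested genes. UNC1999 against JQEZ5 gave 2 higher and 4 lower of 13, beside 18.7% higher and 17.7% lower over all tested genes. Lower were Pagr1a (-0.34, limma adjusted p = 0.0367), Dpy30 (-0.25, 0.000526, and -0.40 by voom), Psip1 (-0.15, 0.00888) and Paxip1 (-0.14, 0.0192). Paxip1 lost this call without UNC1999 replicate 1 or JQEZ5 replicate 1 (limma adjusted p = 0.0502 to 0.0968). Ncoa6 lost its JQEZ5 call without DMSO replicate 2 or JQEZ5 replicate 2, and Pagr1a its own without UNC1999 replicate 3 or JQEZ5 replicate 2 or 3 (limma adjusted p = 0.133 to 0.167) and by voom (-0.78, limma adjusted p = 0.0809). Pagr1a was -0.53 without JQEZ5 replicate 1, and missed the threshold under 9 alternatives in all. Calls of the list between the inhibitors fell to 3 without UNC1999 replicate 3 or JQEZ5 replicate 1 or 3, and also with the length trend removed. The list's medians were -0.05 with UNC1999 and 0.01 with JQEZ5, each against DMSO, beside -0.01 and 0.01 over all tested genes, and -0.05 for UNC1999 against JQEZ5, beside -0.00.

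In shKdm5b cells none of the 13 partners rose and 3 fell against shEV, beside 15.0% higher and 17.4% lower over all tested genes. These were Bod1l (-0.21, limma adjusted p = 0.0485), a subunit of Setd1b complexes, Hcfc1 (-0.19, 0.0357) and Paxip1 (-0.18, 0.0101). Bod1l was -0.13 without shKdm5b replicate 1, and missed the threshold under 9 alternatives, as Hcfc1 did under 6 (limma adjusted p = 0.0504 to 0.164 over both). None of the 13 was called without shEV replicate 1 or 2 and 1 without shEV replicate 3, while 9 were called without shKdm5b replicate 1, 2 higher and 7 lower. In MLL-AF9 cells WT against EV gave 2 higher and 9 lower, beside 29.8% and 32.4% of all tested genes. H499A against EV gave 0 higher and 6 lower, beside 22.7% and 26.9%, and WT against H499A 3 higher and 2 lower, beside 28.2% and 26.3%. The list's medians were -0.09, -0.08 and 0.01 in this order, beside -0.01, -0.01 and 0.01 over all tested genes. WT against EV fell to 5 calls without EV replicate 1, and WT against H499A to 2 without WT replicate 1 and to 3 without either H499A library. Psip1 averaged 2926 ± 123 counts with WT, 3193 ± 124 with H499A and 3977 ± 149 with EV (SD, n = 2 each). Men1, which encodes menin, averaged 1382 ± 5.53 with WT, 1468 ± 32.4 with H499A and 1707 ± 13.6 with EV. Against EV, Psip1 was -0.38 with WT (limma adjusted p = 3.27e-11) and -0.28 with H499A (2.45e-08), and Men1 was -0.23 with WT (2.45e-07) and -0.17 with H499A (4.85e-05). Cxxc1, the CpG-binding subunit of Setd1 complexes, was lower than EV with WT (-0.15, limma adjusted p = 0.000164) and with H499A (-0.21, 2.67e-06). Hcfc2, a relative of Hcfc1, was -0.23 with WT against EV (limma adjusted p = 3.69e-05) and -0.46 by voom, and Hcfc1 was -0.18 with H499A against EV (1.5e-06). Set against H499A, WT was lower for Hcfc2 (-0.18, limma adjusted p = 0.000821, and -0.37 by voom) and Psip1 (-0.11, 0.00432). It was higher for Pagr1a (0.17, limma adjusted p = 0.0186, and 0.52 by voom) and Hcfc1 (0.09, 0.00499, and 0.14 with quantile normalisation). Pagr1a was 0.09 without WT replicate 1 and 0.26 without WT replicate 2, and missed the threshold under 5 alternatives (limma adjusted p = 0.0508 to 0.325). Hcfc1 lost this call without WT replicate 1 (0.05) or H499A replicate 1, and Psip1 its own without H499A replicate 2 and was -0.07 without WT replicate 2.

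Known target genes of MLL complexes were described in the same way. Of 9, 7 were tested in the NUP98-NSD1 tables and 8 in the MLL-AF9 table. UNC1999 against DMSO gave 1 higher and 6 lower, beside the 23.9% and 24.0% of all tested genes given above. Hoxa9, a homeobox gene that sustains leukaemic self-renewal, averaged 1246 ± 34.2 counts with UNC1999, 1404 ± 11.4 with JQEZ5 and 1882 ± 72.3 with DMSO (SD, n = 3 each). It fell by 0.52 on the log2 scale with UNC1999 (limma adjusted p = 8.48e-09) and by 0.37 with JQEZ5 (1.45e-06). Meis1, the DNA-binding partner of Hoxa9, fell with UNC1999 (-0.35, limma adjusted p = 4.3e-05), and Pbx3, another cofactor of Hoxa9, rose (0.30, limma adjusted p = 0.0139). Hoxa5, a homeobox gene of the same cluster as Hoxa9, was -0.24 (limma adjusted p = 0.00512). By voom the changes were -0.58 for Meis1, 0.63 for Pbx3 and -0.82 for Hoxa5. Pbx3 lost this call without DMSO replicate 3 (limma adjusted p = 0.0586) and was 0.16 without UNC1999 replicate 3. JQEZ5 against DMSO gave 0 higher and 5 lower, beside 13.1% and 10.5% of all tested genes, with Meis1 at -0.30 (-0.47 by voom), Mef2c at -0.21 and Hoxa5 at -0.21, and 3 were called without DMSO replicate 2 or 3 or JQEZ5 replicate 2. In the fits without DMSO replicate 2 or 3 only 6 targets passed the filter and were tested. Hoxa5 lost its call without JQEZ5 replicate 2 or 3 and was -0.68 by voom. Between the inhibitors only Hoxa9 (-0.15, limma adjusted p = 0.00419) of the 7 was called, beside 36.4% of all tested genes, and 2 were without UNC1999 replicate 2.

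The targets moved in both directions in the knockdown. In shKdm5b against shEV cells 1 rose, Hoxa7 (0.22, limma adjusted p = 0.0131), and 3 fell, Meis1 (-0.27, 0.00226), Hoxa10 (-0.24, 0.0044) and Pbx3 (-0.17, 0.0238, and -0.37 by voom), beside 15.0% higher and 17.4% lower over all tested genes. Hoxa7 lost its call without shEV replicate 1 or 3, at 0.21 in both (limma adjusted p = 0.0601 to 0.0631), where 2 targets were called. Pbx3 lost its call without any 1 of the shEV libraries or shKdm5b replicate 2 (limma adjusted p = 0.0629 to 0.0961). WT against EV gave 2 higher and 4 lower, beside 29.8% and 32.4% of all tested genes, with Hoxa10 at 0.23, Pbx3 at 0.18 (0.54 by voom), Hoxa9 at -0.30 and Mecom at -0.15 (-0.09 without WT replicate 2). H499A against EV gave 6 higher and 0 lower of 8, beside 22.7% and 26.9%. Pbx3 averaged 203 ± 4.79 counts with WT, 899 ± 29.1 with H499A and 142 ± 2.64 with EV (SD, n = 2 each), 1.30 higher with H499A than with EV on the deposited log2 scale (limma adjusted p = 5.42e-20) and 2.67 by voom on the recovered counts. Hoxa10 (0.50), Mecom (0.39) and Hoxa9 (0.29) were also higher with H499A. Hoxa10 and Pbx3 were higher with both forms, while Hoxa9 and Mecom were lower with WT. WT against H499A gave 0 higher and 7 lower, beside 28.2% and 26.3% of all tested genes, with Pbx3 at -1.12 (-2.13 by voom), Hoxa9 at -0.59, Mecom at -0.54 and Hoxa7 at -0.35. Over the targets the median change was -0.10 with WT and 0.27 with H499A, each against EV, and -0.01 over all tested genes in both. It was -0.21 with UNC1999 and -0.21 with JQEZ5 against DMSO and 0.02 in shKdm5b against shEV cells.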

How the data were processed

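RNA of 21 libraries was sequenced. Per the submitters' processing notes, STAR 2.4.2, Salmon 0.1.19 and DESeq2 1.38.2 were used with mm10 and GRCm38.p4; which tool did what is not given in the sources used here, nor is the library kit of each library (2 are named in the labels). The authors deposited log2 values per gene after variance stabilisation in 3 separately normalised tables; for the knockdown table that transformation is inferred from the values alone. Inverting it gave normalised read counts, and 100% of values came out as whole reads within 0.05. Members and lists were chosen with earlier results of these data known.

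The deposited log2 values went into limma 3.58.1 (R 4.3.3) with a mean for each group, all groups of a table together and a trended prior; the fit was tested on simulated data first. A gene was tested if, in at least as many libraries as the smallest group holds, it lay 1 log2 unit or more above the table's lowest value. Rows with a shared, date-like symbol were left out. All 10 members are named; of partner and target genes, up to 4 called genes with the largest change per comparison; and the 5 genes correlating best with the 2 members of widest spread. Same-numbered replicates had correlated deviations of -0.08 to 0.16 (inhibitor), -0.15 to 0.22 (knockdown) and -0.05 to -0.01 (overexpression), so the numbers were not taken as pairs. Libraries of unlike number were not compared in this way, so pairing is not excluded. Alternatives were normalisation, filter, trend, voom on the recovered whole reads, the compared groups alone, a replicate block and leaving out each library. Voom scaled each library by its total recovered reads, not by the factors behind the deposited values. Removal of a transcript length trend (GENCODE M21 lengths, GRCm38, found for 96.6% to 96.8% of tested genes) was added after seeing the data. Counting limits precision at the depths given above. One further MLL target gene is not reported here.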

Additional observations from a re-analysis of the deposited data

How the results depend on the processing

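Of 70 changes (10 genes in 7 comparisons) 45 were called, 26 of these kept their call under every alternative, and 0 changed direction. Of 50 named partner and target changes 36 kept their call under every alternative that tested the gene, and 0 changed direction. Some alternatives left a gene below the filter, where its call was not tested. The 50 were picked as the largest called changes of each comparison, so their share kept does not stand for the whole lists. Leaving out 1 library at a time gave 5 to 8 called members for UNC1999 against DMSO, 2 to 4 for JQEZ5 against DMSO, 7 to 8 for UNC1999 against JQEZ5, 1 to 5 for shKdm5b against shEV, 6 to 9 for WT against EV, 4 to 7 for H499A against EV and 6 to 7 for WT against H499A; over all genes, shKdm5b against shEV ranged from 1854 to 5474 calls. Voom, with libraries scaled by total reads, moved the split of all genes to 1947 higher and 3427 lower for UNC1999 against DMSO (2552 and 2565 as reported). For JQEZ5 against DMSO the split moved to 1084 and 1540 (1404 and 1126). Members split 1 higher and 6 lower for WT against EV with median centring and 1 and 7 with the length trend removed (3 and 6 as reported); with that removal UNC1999 split 1 and 5 against DMSO (3 and 5) and 3 and 3 against JQEZ5 (5 and 3).

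With the replicate block the number of called members stayed at 8, 3, 8, 4, 9, 6 and 7 in the order above, but shKdm5b against shEV split 0 higher and 4 lower, in place of 1 and 3.

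Direction turned only in changes that were not called: with the length trend removed in Kmt2b with UNC1999 against DMSO (-0.002), Kdm6b between UNC1999 and JQEZ5 (-0.025), and Kmt2a (0.004) and Kmt2c (0.028) in shKdm5b cells, and with voom in Ash2l between WT and H499A (0.001). Leaving out 1 library, changes ran from -0.052 to 0.007 (Kmt2d), -0.030 to 0.066 (Setd1a) and -0.001 to 0.048 (Ash2l) for JQEZ5 against DMSO, -0.007 to 0.078 (Kdm6b) for UNC1999 against JQEZ5, -0.085 to 0.026 (Setd1a) in shKdm5b cells, -0.090 to 0.049 (Kmt2c) for WT against EV, and -0.013 to 0.071 (Setd1b) and -0.039 to 0.013 (Ash2l) for WT against H499A. The cause was not tested. Kdm6b had the lowest level of the members in the knockdown table, at 6.29 RPM in shKdm5b cells and 7.86 in shEV cells. A filter at 2 log2 units above the lowest value removed it from that table. Fitting the 2 groups alone applies only where a table holds 3.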
